A study of Mus musculus with 80 samples.

Results

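Heat shock proteins and chaperones were examined as 69 genes of the 10842 in a spatial profile of mouse tibialis anterior, a fast muscle of the lower leg. They are every gene of the table whose symbol starts with Hspa, Hspb, Hspd, Hspe, Hsph, Hsp90, Dnaja, Dnajb or Dnajc, or with Cct and a digit, together with Cryab and the Bag genes from Bag1 to Bag6 that the table holds. The group spans 10 HSP70 and HSP110 genes, 3 HSP90 genes, 8 small heat shock proteins, both genes of the mitochondrial chaperonin, 7 subunits of the cytosolic chaperonin TRiC, 33 J proteins (4 of class A, 9 of class B and 20 of class C) and 6 nucleotide exchange factors. Hspb11 carries the family symbol but is known as a component of intraflagellar transport.

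Expression was read with GeoMx, an assay from NanoString in which light frees DNA tags from probes bound to RNA in a selected area of tissue, and the tags are sequenced. The tested animals were 6 mice expressing P301L tau, a form of the microtubule-binding protein known from inherited frontotemporal dementia, set against 6 controls, all labelled C57Bl/6 with the genotype WT; no age was given, although the design text states that controls were matched for age. Per the labels, muscles were flash frozen, and 39 regions came from tau animals and 41 from control animals. Regions were of 4 types, which were fibres with central nuclei (11 tau, 11 control), nerve bundle (9 and 9), surrounding artery (10 and 10) and normal fibres (9 and 11); tau animal T30 had none with central nuclei. The deposited table names AAV8, an adeno-associated virus serotype, in its title; its promoter and what the controls received are not stated in the labels, nor is the way regions were outlined.

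Cells hold newly made and stressed proteins in a foldable state with chaperones. HSP70 proteins bind exposed stretches of a client in a cycle driven by ATP, J proteins bring clients and start the cycle, and exchange factors such as the BAG proteins end it. HSP90 acts later on kinases and receptors, the chaperonins enclose a client in a chamber, and small heat shock proteins hold unfolding proteins without ATP. In striated muscle, Cryab, Hspb1, Hspb6, Hspb7 and Hspb8 are known for association with the Z-disc and sarcomere, and Bag3 joins Hspb8 and HSP70 in the turnover of damaged filamin. HSP70, its co-chaperones and Bag proteins are also known to bind tau.

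The regions were read in 3 scans named in the file header, each with 2 tau and 2 control animals. Total counts ran from 312262 to 1288881 on scan 1, from 315108 to 3356106 on scan 2 and from 145487 to 2168376 on scan 3. The negative probe value, a measure of background from probes without a target, had medians of 25.1, 46.2 and 34.1 on the same scans. Depth and background were also higher in tau animals within each scan: the log2 total count was above that of controls by 0.95, 0.43 and 1.26 on scans 1, 2 and 3, and the log2 negative probe value by 0.25, 0.09 and 0.34. The label of each type was checked against its markers. Myh4, the main fast myosin, stood at a log2 value of 13.97 ± 0.95 in tau and 14.05 ± 0.83 in control nerve bundle regions (SD, n = 6 each), so these regions gave mostly fibre signal; the smooth muscle actin gene Acta2 was higher around arteries than in normal fibres in 12 of 12 animals. The Mapt probe, for endogenous tau, had log2 values of 6.01 ± 0.14 in tau animals and 5.97 ± 0.17 in controls (n = 6 each, SD) and gives no check of the tau label, since the tau sequence it detects was not stated. Labelled sex, 4 female and 2 male in tau animals and 3 and 3 in controls, was not used as the covariate. The Y-linked gene Eif2s3y covered log2 values of 3.75 to 6.64 in 7 animals labelled female and 3.16 to 5.89 in 5 labelled male. These ranges pool the scans and reach below background, so they give no firm check of the labels. The log2 negative probe value averaged 5.21 in tau and 5.05 in control normal fibres.

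All values below are log2 of the normalised probe signal plus 1, as each animal's mean of its regions of a type, unless a multiple of the negative probe value is named. Levels of different genes are not comparable in this scale, since each probe has its own efficiency. Fitted differences are tau minus control, or another region type minus normal fibres, with the standard error (SE), from limma with scan as a covariate for tau and as differences within animals for region types; p-values were adjusted by Benjamini-Hochberg over 10188 genes, with a threshold of 0.05. A region holds many cells, so fewer cells of a type and less RNA per cell cannot be told apart.

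The heat shock element, the site that heat shock factors are known to bind, is written as inverted repeats of GAANNTTC or TTCNNGAA. RefSeq promoters of GRCm38.p6, 250 bases before to 50 after a start, were matched for 56 of the 69 genes. GAANNTTC, which reads the same on both strands, occurred in 14 of these 56 (25%), against 9.04% of all 27025 gene symbols with a promoter; in Bag3, Hspb8 and Hsph1 it lay after the start. TTCNNGAA, also its own reverse complement, occurred in 8 of 56 (14.3%), against 9.6%, and in Cct6a it lay after the start. The form of 3 units, in which both motifs overlap, on either strand, occurred in Dnajb6, Hspd1, Hspe1 and Hsph1 (7.14% of 56, against 0.662% of all symbols). In Hsph1 this form lay after the start. The Hspd1 and Hspe1 matches are reverse complements of each other and may be a shared site. If so, it is counted for both genes, also for GAANNTTC and TTCNNGAA. Shown first are the 250 bases before the start of Hspa1a, Hspb1 and Dnaja4, whose values set single regions or region types apart below, with GAANNTTC in capitals.
Hspa1a, chr17:34972157-34972406, minus strand: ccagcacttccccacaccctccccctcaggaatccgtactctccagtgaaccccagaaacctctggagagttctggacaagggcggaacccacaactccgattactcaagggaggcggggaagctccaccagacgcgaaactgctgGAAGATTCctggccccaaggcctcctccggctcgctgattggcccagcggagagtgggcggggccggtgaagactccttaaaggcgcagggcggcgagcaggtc
Hspb1, chr5:135887669-135887918, plus strand: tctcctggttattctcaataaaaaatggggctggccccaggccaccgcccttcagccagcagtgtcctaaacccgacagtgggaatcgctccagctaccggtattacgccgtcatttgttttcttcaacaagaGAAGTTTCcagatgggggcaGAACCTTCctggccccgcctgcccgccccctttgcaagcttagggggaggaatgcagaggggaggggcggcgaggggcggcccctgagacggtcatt
Dnaja4, chr9:54699309-54699558, plus strand: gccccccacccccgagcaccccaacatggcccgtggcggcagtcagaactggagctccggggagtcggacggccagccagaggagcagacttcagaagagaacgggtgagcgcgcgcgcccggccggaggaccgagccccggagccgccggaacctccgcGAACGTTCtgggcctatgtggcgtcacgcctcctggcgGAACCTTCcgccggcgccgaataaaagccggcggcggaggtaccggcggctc
The following 2 windows hold, in capitals, matches of the form of 3 units. Dnajb6, with the lowest tau minus control difference of the tested J proteins in fibres with central nuclei, has 1 match. Hspd1, whose start lies head to head with that of Hspe1, its partner in the mitochondrial chaperonin, has 2 overlapping matches.
Dnajb6, chr5:29735832-29735884, plus strand: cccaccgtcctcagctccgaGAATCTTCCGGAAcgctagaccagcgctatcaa
Hspd1, chr1:55088039-55088096, minus strand: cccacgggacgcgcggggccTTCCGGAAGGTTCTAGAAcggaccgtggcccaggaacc
A match is a description of these letters and not a measured site.

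Signal over background differed widely among the chaperone probes; it describes how well each probe was detected and gives no order of RNA levels between genes. The constitutive HSP70 gene Hspa8 had a median of 23.6 times the negative probe value over the 80 regions (range 2.39 to 108). Hspb6 had 21.8 times (3.56 to 74.9), Cryab 18.1 times (2.40 to 77.4) and Hsp90ab1, the constitutive HSP90, 18.1 times (3.58 to 50.9). Hspb8 had 11.1 times, Hspa9, the mitochondrial HSP70, 10.1 times, Hspb1 6.48 times, Dnaja2 5.88 times and Hspb7 5.69 times. Hspa8, Hsp90ab1, Hspb1, Hspb6, Hspb8 and Cryab were at or above 1.5 times the negative probe in all 80 regions, as 11% of all genes were.

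All 7 TRiC subunits lay between 2.06 and 4.05 times, with Cct8 highest and Cct5 next at 3.52 times, and the chaperonin genes Hspe1 and Hspd1 had 3.74 and 2.58 times. Of the exchange factors, Bag1 had 4.25, Bag6 3.91 and Bag3 3.38 times. Of the 20 J proteins of class C, 5 reached 1.5 times in at least 40 regions, led by Dnajc7, which links HSP70 and HSP90, and Dnajc19, a part of the mitochondrial import motor, at 2.41 and 2.31 times. In all, 41 of 69 members reached 1.5 times in at least 40 regions, against 55.5% of all genes. The inducible genes Hspa1a and Dnajb1 were at background: Hspa1a had a median of 0.609 times, at 1.5 times or more in 1 region, and Dnajb1 0.968 times, in 7 regions. These 2, Hspa14, Hspb11 and Hspbp1 did not reach 1.5 times in 10% of regions, so 64 members were tested. Hspa1a is nearly identical in sequence to Hspa1b, which is not analysed here, so its reads may come from both.

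**Figure D1:**
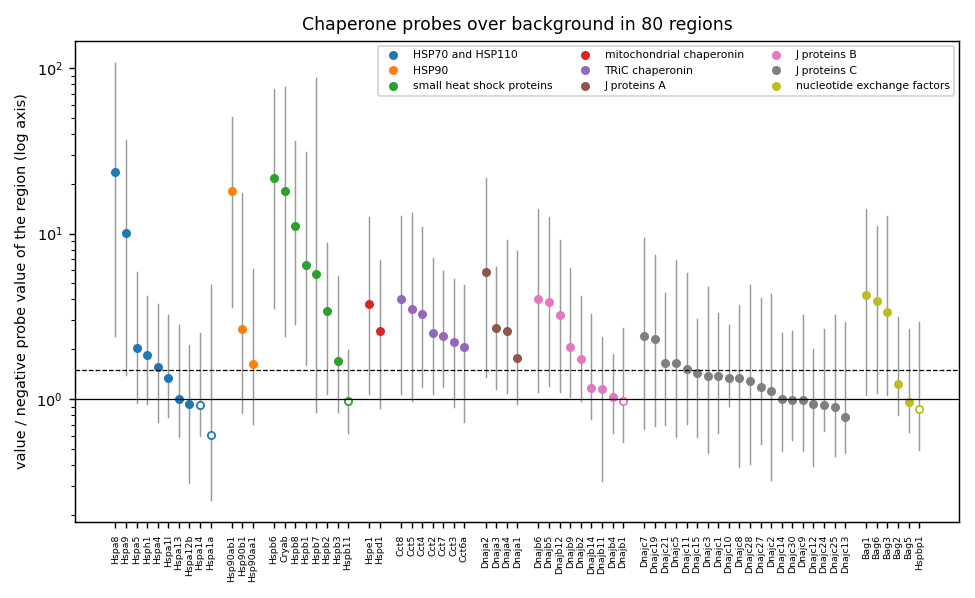
Value over the negative probe value of the region for each of the 69 genes (log axis); points are medians over 80 regions, grey lines the lowest and highest, open points the 5 genes not tested, and the dashed line 1.5 times. Hspa8, Hspb6, Cryab and Hsp90ab1 stand highest, from 18.1 to 23.6 times, and Hspa1a lies at 0.609 times.

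Whether tau altered chaperone expression was first asked over the mean of nerve bundle, surrounding artery and normal fibres. No member passed the threshold, as no gene did (0% of 10188), while at an unadjusted p under 0.05 5 members were higher in tau (16.1% of all genes) and 4 lower (3.78%). Of 64 members, 33 had a difference above 0, against 72.3% of all genes, and the median was 0.02, against 0.09 over all genes. The HSP70 and HSP110 genes had 6 of 8 above 0, the HSP90 genes 2 of 3, the small heat shock proteins 4 of 7, TRiC 4 of 7, and the J proteins 14 of 32. These counts depend on scaling. With the negative probe value as a further covariate, 54 of 64 members were above 0, with a median of 0.13, against 0.03 over all genes. With that value subtracted, 11 of 64 were above 0, with a median of -0.28, against -0.13 over all genes.

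The smallest p belonged to Dnajc15, a J protein of the mitochondrial inner membrane. Its lowest, median and highest values were 5.23, 5.80 and 6.04 in tau animals, against 5.19, 5.43 and 5.75 in controls, so the groups overlapped. The difference was 0.29 ± 0.08 (SE; adjusted p = 0.0994, limma), above 0 on each of the 3 scans. Dnajc1, a J protein of the endoplasmic reticulum, had 5.65, 5.78 and 5.94 in tau animals, against 5.15, 5.42 and 5.93, with a difference of 0.29 ± 0.09 (SE; adjusted p = 0.103, limma). Both had medians below 1.5 times the negative probe value, where background is most of the signal. Dnaja2, a partner of HSP70 in folding and disaggregation, had 6.40, 7.58 and 8.38 in tau animals, against 6.72, 8.10 and 8.56, and the difference was -0.30 ± 0.10 (SE; adjusted p = 0.146, limma).

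Hspa8, named here as a fixed member, had the lowest difference of the 64 members. Its lowest, median and highest values were 7.63, 9.71 and 10.41 in tau animals, against 8.39, 9.98 and 10.69 in controls, and the groups overlapped. The difference was -0.37 ± 0.17 (SE; adjusted p = 0.235, limma), below 0 on each of the 3 scans. Hsp90ab1 averaged 9.05 ± 0.69 in tau and 9.04 ± 0.57 in controls (SD, n = 6 each). Hsp90aa1, the stress-inducible HSP90, averaged 5.90 ± 0.35 and 5.87 ± 0.27, and Hsp90b1, the HSP90 of the endoplasmic reticulum, 6.49 ± 0.60 and 6.64 ± 0.67 (SD, n = 6 each). The groups overlapped for these HSP90 genes. Of the small heat shock proteins, Cryab averaged 9.17 ± 0.87 in tau and 9.25 ± 0.68 in control animals, Hspb1 7.78 ± 0.76 and 7.71 ± 0.68, Hspb6 9.53 ± 0.73 and 9.37 ± 0.67, and Hspb8 8.40 ± 0.63 and 8.46 ± 0.61 (SD, n = 6 each). Each of these differences was smaller than the SD between animals. Those SDs, and the overlap of the groups, also hold the differences between scans, which the fitted differences take out. For Hspb8, the SDs within scans 1, 2 and 3 were 0.28, 0.22 and 0.38, tau and control animals together. Hspd1, the chamber of the mitochondrial chaperonin, averaged 6.55 ± 0.41 in tau and 6.40 ± 0.35 in control animals, and its lid Hspe1 6.93 ± 0.46 and 6.94 ± 0.50 (SD, n = 6 each). Hspa5, the HSP70 of the endoplasmic reticulum, averaged 6.28 ± 0.31 and 6.02 ± 0.28, Bag3 6.91 ± 0.46 and 6.93 ± 0.49, Bag1 7.03 ± 0.76 and 7.13 ± 0.73, Dnaja1 6.03 ± 0.21 and 6.12 ± 0.31, Cct2 6.50 ± 0.35 and 6.36 ± 0.29, and Hsph1, an HSP110 exchange factor, 6.03 ± 0.22 and 5.87 ± 0.26 (SD, n = 6 each). The groups overlapped for each of these genes, and no difference passed the test.

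**Figure D2:**
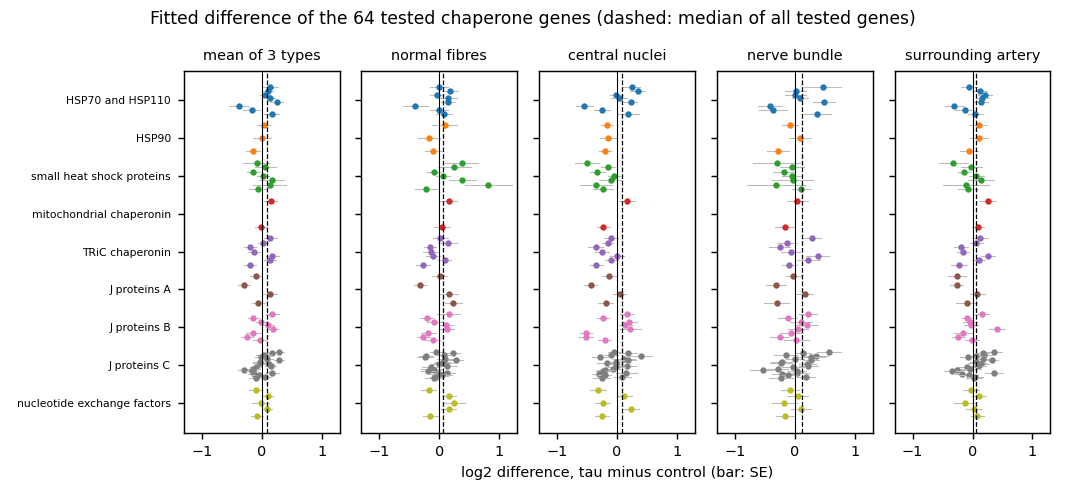
Fitted log2 difference, tau minus control, of each of the 64 tested genes by role (points, bars the SE) in the mean of 3 region types and in each type; the dashed line is the median of all tested genes. Points scatter on both sides of 0 in each panel, and in central nuclei 43 of 64 lie below 0.

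In fibres with central nuclei, a form known from regenerated muscle, more chaperone genes lay below 0 than above it in tau animals, and none passed (0% of 10188 genes). At an unadjusted p under 0.05, 2 members were higher (13.2% of all genes) and 13 lower (7.42%). Of 64 members, 43 were below 0, against 34.3% of all genes, and 24 were lower in tau on each of the 3 scans, against 15.1%. The median was -0.12 over members and 0.08 over all genes; without T13 the members' median was -0.06. All 7 small heat shock proteins tested, 6 of 7 TRiC subunits and all 3 HSP90 genes were below 0, while 5 of 8 HSP70 and HSP110 genes were above 0. Abundant genes as a whole lay lower in tau: the 12 members at 4 times the negative probe or more were all below 0, with a median of -0.33, and so were 649 of all 891 genes at that level, with a median of -0.21. Below that level, 31 of 52 members were below 0, with a median of -0.06, against a median of 0.09 over all 9297 such genes. The log2 negative probe value was 5.35 ± 0.23 in tau and 5.01 ± 0.39 in controls (SD, n = 5 and 6), and with it as a further covariate 28 of 64 members were below 0. The median was then 0.03 over members and -0.01 over all genes. Marker lists also differed in sign there: 10 of 12 myofibre genes were below 0, with a median of -0.29, while 10 of 10 endothelial, 9 of 9 slow fibre and 3 of 3 macrophage genes tested were above 0, with medians of 0.17, 0.18 and 0.27. Their part in the result was not tested.

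The 3 members with the smallest p were J proteins, and Hspa8 followed. Dnajb5, a J protein of muscle and brain, had 7.10 in T13 on scan 1, 6.05 in T14 and 6.24 in T7 on scan 2, and 7.02 in T15 and 7.09 in T20 on scan 3, against a lowest, median and highest of 6.45, 7.61 and 7.82 in 6 controls. Scan 2 was lowest in both groups, and within each scan the tau mean was lower, by 0.59, 0.33 and 0.65. The fitted difference was -0.51 ± 0.10 (SE; adjusted p = 0.0674, limma). Dnajb6, which is known to hold back aggregation and whose mutations cause a limb-girdle muscular dystrophy in humans, had 7.15 in T13, 6.04 in T14, 6.34 in T7, 7.02 in T15 and 6.97 in T20, against 6.49, 7.53 and 7.95 in controls. Its difference was -0.53 ± 0.12 (SE; adjusted p = 0.0674, limma).

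Dnaja2 had 7.76 in T13, 6.31 in T14, 6.50 in T7, 7.59 in T15 and 7.82 in T20, against 6.76, 8.04 and 8.60 in controls, a difference of -0.44 ± 0.11 (SE; adjusted p = 0.0694, limma). Hspa8 had 9.64 in T13, 7.67 in T14, 8.37 in T7, 9.54 in T15 and 9.60 in T20, against 8.28, 10.09 and 10.59 in controls. Its difference was -0.55 ± 0.14 (SE; adjusted p = 0.0742, limma). The groups overlapped for all 4 genes, since the control animals of scan 2 lay below the tau animals of the other scans. Within a scan, every tau animal was below both controls for Dnajb5, Dnajb6 and Dnaja2, while for Hspa8 T7 was above control C3. Cct4 was singled out after its values were seen; Cct8 differed by -0.35 ± 0.11 and Cct4 by -0.36 ± 0.12 (SE; adjusted p = 0.105 and 0.125, limma). With a filter of 2 times the negative probe in 50% of regions, which tested 3128 genes and 32 members, 5 members passed as lower (Dnajb5, Dnajb6, Dnaja2, Hspa8 and Cct8, adjusted p from 0.0273 to 0.0424, limma), against 7.9% of those genes. Members passing as lower were 2 with quantile normalisation (0.687% of all genes), 3 with the negative probe subtracted (1.63%), 2 with 1 region per animal and type (0.697%), 3 with edgeR on recovered reads (1.72%), 4 without T7 (2.06%) and 1 without C3 (0.334%). Once the negative probe value was added beside scan, the 6 differences came to between -0.30 and -0.03 with an adjusted p of 1 (limma).

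**Figure D3:**
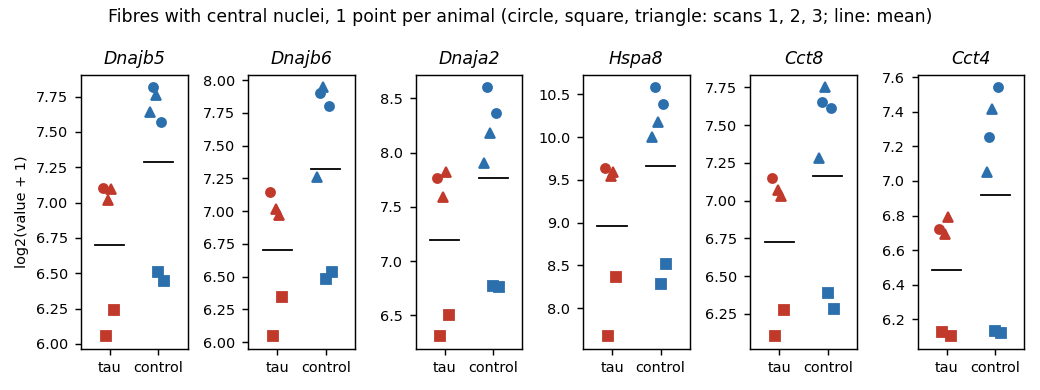
Log2 values of 6 chaperone genes in fibres with central nuclei, 1 point per animal (5 tau, 6 control), with the mean as a line and the scan as the symbol. Within each symbol the tau points lie below the control points for Dnajb5, Dnajb6 and Dnaja2, and the animals of scan 2 are lowest in both groups.

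In the other types no member and no gene passed either. In nerve bundle regions 31 of 64 members were above 0 (69.9% of all genes), and at an unadjusted p under 0.05 2 were higher (10.1%) and 1 lower (2.42%). Hspa5 had lowest, median and highest values of 5.91, 6.30 and 6.96 in tau animals, against 5.49, 5.90 and 6.32 in controls, a difference of 0.48 ± 0.18 (SE; adjusted p = 0.369, limma). Dnajc1 differed by 0.57 ± 0.20 and Dnajc28 by -0.54 ± 0.21 there (SE; adjusted p = 0.36 and 0.376, limma); without C20 Dnajc1 came to 0.35. Around arteries 34 of 64 members were above 0 (65.3% of all genes), and 5 were higher (9.86%) and 3 lower (2.34%) at an unadjusted p under 0.05. Dnajc15 differed by 0.32 ± 0.10, Dnajb4, known as an HSP40 of heart and muscle, by 0.41 ± 0.13 and Dnajc3, a co-chaperone of the endoplasmic reticulum, by -0.34 ± 0.13 (SE; adjusted p = 0.201, 0.221 and 0.313, limma). In normal fibres 33 of 64 members were above 0 (65.5% of all genes), and 2 were higher (9.2%) and 3 lower (4.4%) at an unadjusted p under 0.05. The 3 smallest p were those of Dnaja2 at -0.32 ± 0.11, Dnajb6 at -0.27 ± 0.10 and Cct8 at -0.27 ± 0.11 (SE; adjusted p = 0.225, 0.281 and 0.299, limma). Dnaja2 was thus among the 3 smallest p in normal fibres and in central nuclei; these comparisons use the same animals.

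One region stood apart in several stress-inducible chaperones. The single normal fibre region of tau animal T15, on scan 3 with 2168376 counts, had an Hspa1a signal of 186, or 4.87 times its negative probe value, whereas the highest signal in the other 79 regions was 34.8. In log2 values, Hspa1a was 7.54 there, against 4.44 to 5.09 in the animal's other regions. Hspb1 was 10.21, against 7.73 to 8.40, and Hsp90aa1 7.42, against 5.81 to 6.35. All 3 were the highest of the 80 regions. Cryab was 11.38, against 9.01 to 10.93, and Bag3, at 8.18 against 6.53 to 8.17, was just above the animal's other regions; both were also the highest of 80. Hspb7 was 9.89, within the range of 6.91 to 10.80 of the other regions.

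The T15 region was singled out after its chaperone values were seen, so the counts below describe it and test nothing. Measured against the median of T15's other regions, 6 members were higher by a log2 value of 1 or more. In order, these were Hspa1a (2.78), Hspb1 (2.25), Cryab (1.85), Hspb7 (1.71), Hsp90aa1 (1.36) and Bag3 (1.14). Over all genes 0.258% were higher by as much. Among the other members, Dnaja4 was higher by 0.82, Dnaja1 and Hspb6 by 0.70 each, Hspb8 by 0.59 and Hspe1 by 0.50. Hspa8 was higher by 0.27, Hspa9 by 0.39 and Hspd1 by 0.39. Of the 69 members, 10 were above every other T15 region, as 6.73% of all genes were. Heat-inducible genes were among those that differed little, with Dnajb1 at 0.06 and Hsph1 at -0.04. Promoter windows were at hand for 4 of the 6, Hspa1a, Hspb1, Hspb7 and Bag3, and GAANNTTC was in those of Hspa1a, Hspb1 and Bag3, in Bag3 after the start. Other genes, named after their values were seen, were high in the same region: Ankrd1, a stretch-responsive ankyrin of muscle, by 3.22, Myh2, the myosin of type IIA fibres, by 3.02, Xirp1 by 2.11, Atf3, a stress-induced transcription factor, by 1.61 and Flnc, a client of Bag3, by 1.55. Myh4 was lower by 1.07. The part of fibre type in these values was not tested.

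The T15 region widened the tau spread in normal fibres. Hspa1a averaged 5.12 ± 1.23 in tau animals (SD, n = 6) and 4.64 ± 0.37 without T15 (n = 5), against 4.27 ± 0.45 in controls (n = 6). Hspb1 averaged 7.97 ± 1.31 and 7.53 ± 0.81 without T15, against 7.73 ± 0.76 in controls, and Hsp90aa1 5.91 ± 0.78 and 5.61 ± 0.26 without T15, against 5.82 ± 0.30. For Hspb1 and Hsp90aa1 the tau mean was above the control mean with T15 and below it without. Cryab averaged 9.19 ± 1.45 and 8.75 ± 1.08 without T15, against 8.82 ± 0.81 in controls, which turned in the same way, and Bag3 averaged 6.97 ± 0.81 and 6.73 ± 0.61 without T15, against 6.73 ± 0.41. Hspb7 averaged 7.76 ± 1.57 and 7.33 ± 1.31 without T15, against 6.94 ± 1.23, and stayed above the control mean. Its fitted difference of 0.82 was the highest of the 64 members in normal fibres and did not pass the threshold. That difference came to 0.58 without T15 and 0.34 without C20.

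**Figure D4:**
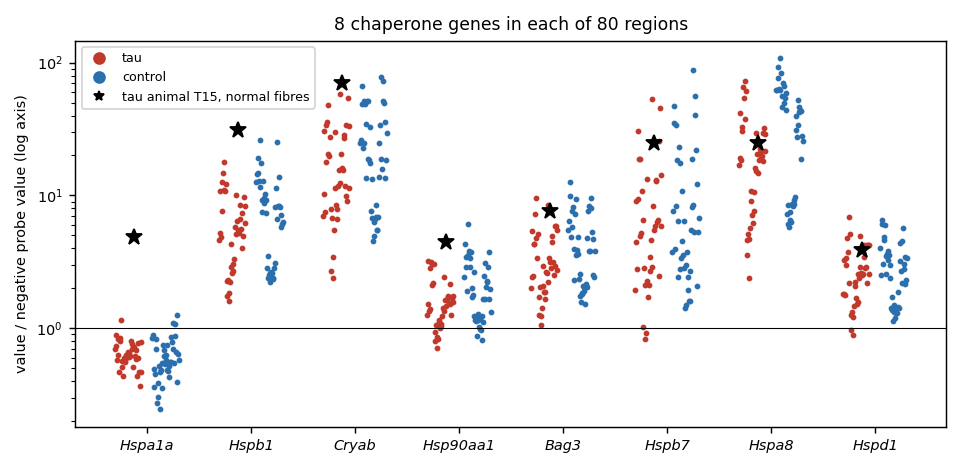
Signal over the negative probe value of the region (log axis) for 8 chaperone genes, 1 point per region (39 tau, 41 control); the star is the normal fibre region of tau animal T15. The star is the highest point for Hspa1a, at 4.87 times, and for Hspb1, and lies within the cloud for Hspa8 and Hspd1.

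Region types of the same animal differed widely in some chaperone genes. The range over the types of an animal had a median over 12 animals of 2.05 for Hspb7, 1.32 for Cryab, 0.94 for Hspb6, 0.74 for Hspa9, 0.70 for Bag3 and 0.67 for Dnaja4, against 0.33 over all tested genes; Hspa8 had 0.35. The other small heat shock proteins ranged less, with 0.44 for Hspb8, 0.42 for Hspb1, 0.33 for Hspb2 and 0.30 for Hspb3. Several of the wide-ranging genes were high in the same places: the type with the highest Hspb7 was also the highest for Dnaja4 in 12 of 12 animals, for Hspa9 and Hspb6 in 11, for Cryab in 10, for Hspa8 in 9 and for Bag3 in 8, but for Hspb1 and Hspb2 in 7, for Hspb8 in 5 and for Hspb3 in 2. Of all tested genes, 2.29% shared the type with Hspb7 in 10 or more animals, and those 4 members did. The genes were picked after their values were seen, and genes of 1 region share its depth.

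That type was not the same in every animal. Hspb7 was highest around arteries in 4 animals, in nerve bundle in 6, in central nuclei in 1 (C20, 9.86 against 6.21 in its normal fibres) and in normal fibres in 1 (T15). The widest contrast in a tau animal was that of T13, where Hspb7 was 9.85 around the artery, 7.18 in central nuclei, 6.68 in nerve bundle and 8.23 in normal fibres. Dnaja4 in T13 was 7.23, 6.50, 6.04 and 6.79 in the same order. Some fibre type genes peaked with Hspb7 and others did not: the type with the highest Hspb7 was the highest for Mb, myoglobin, in 11 of 12 animals, for Myh1, the IIX myosin, in 10 and for Myh2 in 9, but for the IIB myosin Myh4 in 1. The other 8 genes of the myofibre list shared it in 1 to 5 animals. Of the 9 slow fibre genes tested, Casq2 shared it in 10, Myoz2 in 9, Myl3 in 8, Myl2 and Tnnt1 in 6, and Myh7, Tnnc1, Tpm3 and Atp2a2 in 4. In T13, Myh2 was 10.91 around the artery, against 5.76 in central nuclei, 5.43 in nerve bundle and 5.56 in normal fibres. Among controls, C20 had Myh2 at 10.81 in central nuclei, against 5.54 in normal fibres. The part of fibre type in the small heat shock protein values was not tested.

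**Figure D5:**
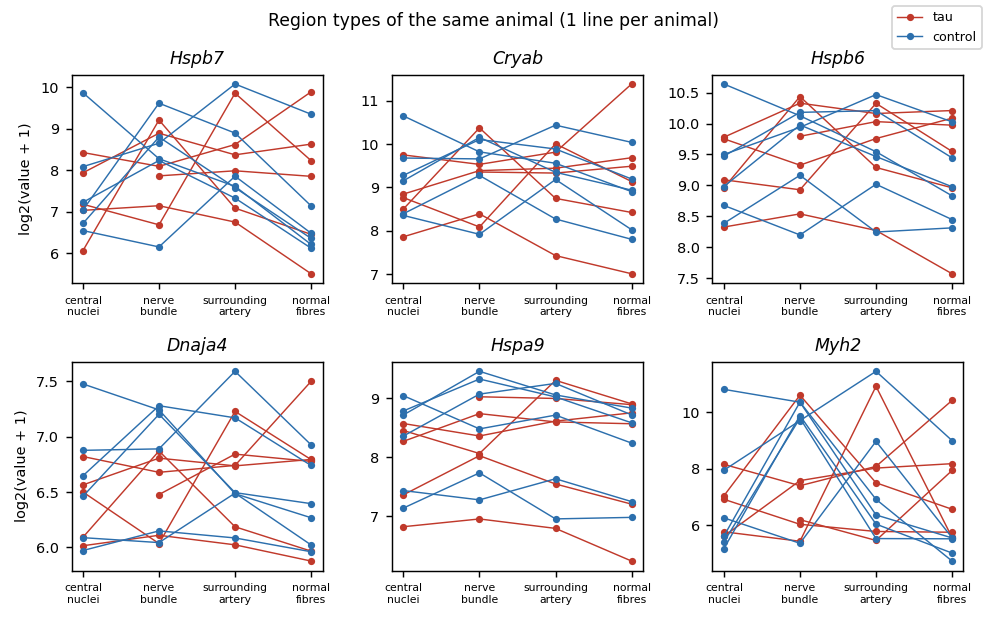
Log2 values of 5 chaperone genes and Myh2 in the 4 region types, 1 line per animal (6 tau, 6 control; T30 has no central nuclei region). The highest type for Hspb7 is also the highest for Cryab, Hspb6, Dnaja4 and Hspa9 in 10 to 12 of 12 animals, and Myh2 peaks in the type of the highest Hspb7 in 9 of 12 animals.

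Compared with normal fibres over the 12 animals, regions around arteries had higher chaperone values in most members, and none passed the threshold (0% of 10188 genes); at an unadjusted p under 0.05, 10 members were higher (9% of all genes) and 0 lower (4.81%). Of 64 members, 52 were above 0, against 52.4% of all genes, with a median of 0.07 against 0.01; without T15 it was again 52. Among genes at 4 times the negative probe or more, 10 of 12 members were above 0, with a median of 0.09, and 715 of all 891 genes, also with a median of 0.09. Hspb7 had lowest, median and highest values of 6.75, 8.18 and 9.85 around arteries, against 5.50, 8.04 and 9.89 in normal fibres of tau animals, and 7.33, 7.73 and 10.07, against 6.12, 6.42 and 9.35 in controls. It was higher around the artery in 10 of 12 animals, by 0.82 ± 0.31 (SE; adjusted p = 0.316, limma). Hspa9 was higher in 10 of 12 animals, by 0.28 ± 0.08, and Hspb6 in 9, by 0.37 ± 0.10 (SE; adjusted p = 0.307 each, limma). Hspa12b, an HSP70 relative known from endothelium, was higher in 10 of 12 animals, by 0.21 ± 0.07 (SE; adjusted p = 0.307, limma), with a median below the negative probe value. Beside these stand 2 genes of the myofibre list picked after their values were seen, Mb, higher by 0.93 ± 0.40 in 10 of 12 animals, and Myh2, higher by 0.94 ± 0.59 in 9 of 12 (SE). The myofibre list as a whole had 7 of 12 genes above 0, with a median of 0.02, the smooth muscle list 5 of 5 genes tested and the fibroblast list 8 of 9; their part in the result was not tested.

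Against normal fibres, nerve bundle regions had 43 of 64 members above 0, against 47.8% of all genes, and none passed (at an unadjusted p under 0.05, 3 members were higher, against 3.27% of all genes, and 0 lower, against 0.0982%). Hspa9 was higher in 10 of 12 animals, by 0.28 ± 0.13, Dnajc27 in 9, by 0.30 ± 0.13, Hspb6 in 7, by 0.38 ± 0.18, and Hspb7 in 8, by 0.78 ± 0.40 (SE; adjusted p = 0.825 each, limma). Without C20, Dnajc27 came to 0.16. Fibres with central nuclei had 35 of 64 members above 0, against 54.5% of all genes; 1 was higher at an unadjusted p under 0.05 (0.991%) and 0 lower (0.236%). Dnajc5, which acts at synaptic vesicles, was higher there in 10 of 11 animals, by 0.18 ± 0.08 (SE; adjusted p = 0.997, limma). Dnajc3 and Hspa4 each differed by 0.12, with SEs of 0.07 and 0.08 (adjusted p = 0.997 each, limma).

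Whether a contrast between types differed in tau animals was tested as an interaction, and no member passed in any type. At an unadjusted p under 0.05 the members above and below 0 numbered 1 and 1 in central nuclei (1.31% and 1.51% of all genes), 3 and 1 in nerve bundle (3.32% and 2.19%), and 2 and 2 around arteries (3.16% and 2.22%). The central nuclei minus normal difference of Cryab averaged -0.38 ± 0.94 in tau and 0.43 ± 0.71 in controls (SD, n = 5 and 6), a fitted difference of -0.85 ± 0.35 (SE; adjusted p = 0.998, limma). The artery minus normal difference of Cryab averaged -0.06 ± 0.84 in tau and 0.63 ± 0.29 in controls (SD, n = 6 each), and the fitted difference was -0.69 ± 0.25 (SE; adjusted p = 0.857, limma). Both draw on the T15 normal region, the highest Cryab value of all, and without T15 the artery difference was -0.43; without C20 the central nuclei difference was -0.40. Dnajc12 (0.66 ± 0.24) and Dnajb5 (-0.30 ± 0.15) in central nuclei, Cct6a (0.49 ± 0.20), Dnajc1 (0.62 ± 0.29) and Dnajc28 (-0.45 ± 0.21) in nerve bundle, and Cct6a (0.37 ± 0.14) and Dnajc1 (0.41 ± 0.18) around arteries were the other members with the smallest p (SE; adjusted p from 0.793 to 0.998, limma). Without C20, Dnajc12 in central nuclei came to 0.41 and Dnajc1 in nerve bundle to 0.40, and without C2 Dnajc1 around arteries came to 0.26.

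Scan was the term with calls. Of 64 members, 52 differed between scans, against 71.6% of all genes (limma F test of the mean of 3 types), and 52 had their lowest mean on scan 2, against 37.1% of all genes. Hspa8 averaged 10.33 ± 0.40, 8.30 ± 0.46 and 9.86 ± 0.24 on scans 1, 2 and 3 (SD, n = 4 each; adjusted p = 2.45e-06, limma). Hsp90ab1 averaged 9.47 ± 0.27, 8.30 ± 0.29 and 9.37 ± 0.24 (adjusted p = 6.22e-05, limma), and Cryab 9.42 ± 0.27, 8.40 ± 0.64 and 9.80 ± 0.40 (adjusted p = 0.000635, limma; SD, n = 4 each). Hsph1 averaged 5.90 ± 0.07, 5.97 ± 0.06 and 5.98 ± 0.46 and did not pass (adjusted p = 0.881, limma). Scan 2 had the highest background and the deepest counts, and in multiples of the negative probe Hspa8 had medians of 59.2, 7.30 and 26.7. What set the scans apart was not tested.

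Partner genes outside the group were read from fixed lists. Of 34 co-chaperones and cofactors, 32 were tested. In central nuclei none passed, 14 were above 0 and 18 below, with a median of -0.05. Over all genes 34.3% were below 0 in central nuclei. Unc45b, the myosin chaperone that works with HSP90 in muscle, differed by -0.45 ± 0.11, and Sgtb, a co-chaperone with HSP70-binding repeats, by 0.51 ± 0.12 (SE; adjusted p = 0.0683 and 0.0674, limma). Of the heat shock factors and regulators, 10 of 13 were tested, with 4 above 0 and 6 below; Hsf1, the main factor of the heat shock response, differed by -0.15 ± 0.11 and Hsf4 by -0.33 ± 0.12 (SE; adjusted p = 0.426 and 0.146, limma). Of 11 prefoldin genes and TRiC partners, 3 were above 0 and 8 below, and of the 16 genes tested for folding in the endoplasmic reticulum and mitochondria, 11 were above and 5 below, with none past the threshold. Around arteries, against normal fibres, 22 of the 32 co-chaperones and 9 of the 10 heat shock factors and regulators were above 0. So were 6 of the 11 prefoldin genes and TRiC partners and 11 of the 16 folding genes, again with none past the threshold. Over all genes 52.4% were above 0 there, and 715 of 891 among those at 4 times the negative probe or more.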

How the data were processed

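The authors deposited Q3-normalised probe signal, which the headers give as linear values with third-quartile normalisation, without log or background subtraction, and mm10 is the build in the submitters' processing notes. No aligner or counter is named in the labels. Dividing by the value of 1 read gave whole reads (at least 99.98% of values, tolerance 0.02 of a read), which gave total counts and the edgeR alternative.

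A gene was tested at 1.5 times the negative probe value or more in at least 10% of regions (8 of 80), which kept 10188 genes. Signal was taken as log2(value + 1), without background subtraction, and averaged per animal and type. Changes of low genes are therefore understated, and they also carry the background, which was higher in tau animals. Models were limma 3.58.1 in R 4.3.3 with a trend (edgeR 4.0.16 as an alternative); animals pair the types, as the labels name them. The model script was tested on simulated data. Named genes are a fixed set of 21 members in the table, the 2 of each role with the highest mean in normal fibres, and per comparison up to 10 members past the threshold or else the 3 with the smallest p. Members, lists and rules were chosen with earlier results of these data known. Promoter sequences are RefSeq, GRCm38.p6. Alternatives changed pseudocount, filter, scaling, background, covariates, pairing, region and animal.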

Additional observations from a re-analysis of the deposited data

Results flagged for a closer look

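Among 168 groups of 5 or 6 animals formed by 21 members, treatment and region type, 9 held an animal at its top or bottom set apart from the rest. That is close to 1 in 20, the rate chance gives for separate groups of like animals. These groups mix scans and share animals, so the rate that chance gives here is not known. In tau normal fibres, T15 was the highest animal for Hspa1a at a log2 value of 7.54, with the next at 4.93 and the lowest at 4.03, and for Hsp90aa1 at 7.42, with the next at 5.93; both come from the one T15 normal region. In control normal fibres, C16 was highest for Hspb7 at 9.35, with the next at 7.14; its Myh2 there was 8.99. C20 was lowest for Hsph1 in control normal fibres at 5.45 and in control nerve bundle at 4.63. C30 was lowest for Hspa1a in control central nuclei at 3.33, where the gene is at background. T30 was highest for Dnaja1 in tau nerve bundle at 6.58. C2 was highest around control arteries for Hsp90aa1 at 6.53 and for Dnaja1 at 6.97.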

How the results depend on the processing

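The 38 named member differences kept their direction in all 865 recomputed values, 20 of which, all in central nuclei, passed the threshold. Tau calls over all genes, 0 in each type and in the mean, were as follows elsewhere. Tightening the filter gave 270 in the mean, 448 in central nuclei with 5 members, and 92 around arteries. Quantile normalisation gave 1, 237 (2 members) and, in nerve bundle, 1; subtracting the negative probe gave 175 (3 members) in central nuclei, 1 region per animal and type 97 (2 members), and edgeR on recovered reads 195 (3 members). Labelled sex with scan gave 51 in normal fibres and 1 in central nuclei. Leaving out 1 animal gave 0 to 372 in the mean, 0 to 23 in normal fibres, 0 to 373 in central nuclei and 0 to 1 in nerve bundle, with 0 to 4 members in central nuclei; the highest counts there and in the mean came without T7, and C3 left out gave 107 and 193, T30 left out 167 in the mean. Without the replicate block, which ignores the pairing by animal, nerve bundle against normal gave 1 gene, and edgeR gave 5 there and 44 for arteries, with no member. The artery interaction gave 1 with the tighter filter and 1 with quantile normalisation. Scan calls were 2721 of 3128 genes and 31 of 32 members with the tighter filter, which tests fewer genes; leaving out an animal gave 6742 to 7610 genes and 47 to 56 members. Scaling moved the median tau difference of all genes in central nuclei from 0.08 to 0.00 (quantile) and -0.26 (subtraction), and the members' median to -0.14 and -0.60. The causes were not tested. Depth, background near the signal of most J proteins and 6 animals a group limit all of these results.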
